A study of Mus musculus with 7 samples.

Results

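The 10 genes described here, Aldh1a1, Aldh1a2, Aldh1a7, Aldh1b1, Aldh1l1, Aldh2, Aldh3a2, Aldh4a1, Aldh6a1 and Aldh7a1, encode aldehyde dehydrogenases and were picked by name from the 14641 genes counted in mouse heart. RNA was sequenced from the whole hearts of male C57BL/6J mice, with 4 non-transgenic (NTG) libraries and 3 libraries from mNrf2-TG mice, which carry an additional full-length Nrf2 under the αMHC promoter, a promoter active in cardiomyocytes. All 10 names were found, and all 10 genes passed the filter on low counts. The labels give 6 months as the age of the mNrf2-TG mice and no age for NTG, the methods give 6 to 7 months for both, and the design text gives 7 to 8 months. Neither group carries a label of a treatment, and the labels do not say how many founder lines the transgenic mice came from.

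Aldehyde dehydrogenases oxidize aldehydes to acids with NAD or NADP as the cofactor. Some clear toxic aldehydes that arise from ethanol or from oxidized lipids, some make retinoic acid from retinaldehyde, and others each carry out a fixed step in the breakdown of an amino acid or in folate metabolism. Nrf2 is a transcription factor that Keap1 holds at a low level in unstressed cells, and it binds antioxidant response elements near genes of detoxification and glutathione metabolism, among which aldehyde dehydrogenase genes are often listed. In the heart, Aldh2 is known for protecting cardiomyocytes against lipid aldehydes, and Aldh1a2 for making retinoic acid in the epicardium.

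The counts of a library summed to between 6534684 and 8405857. Nfe2l2, the gene of Nrf2, had a Log2FC of 3.36, rising from a range of 729 to 1392 counts in NTG to one of 10912 to 12839 (SE 0.18, edgeR adjusted p = 2.96e-06). This count includes reads from the transgene. NTG replicate 3 stood apart from the other NTG libraries, with Spearman correlations over genes of 0.984 to 0.986 with them against 0.990 to 0.994 among the other 3. The cardiomyocyte markers were the most abundant of the marker lists and marked all libraries as heart, while Alb, Apoa1, Sftpc, Sftpa1 and Scgb1a1, which define liver and lung, were not among the genes analysed here. Of the liver and lung markers that were measured, Ttr had at most 3 counts in any library, Serpina1a at most 6 and Sftpb at most 6. Since whole heart tissue was sequenced, fewer cells of a type and less RNA per cell cannot be told apart. The labels do not number the mice behind the 7 libraries, so p-values measure the spread between these libraries.

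Aldh1a1 and Aldh1a7 lie next to each other on chromosome 19, at 20492715 to 20643465 on the plus strand and 20692953 to 20727562 on the minus strand (GENCODE M21, GRCm38), and are near copies. Each has a coding sequence of 1506 bases, of which 126 differ, an identity of 91.6%. The stretch from base 317 to base 376 of the coding sequence is shown because it holds 16 of these differences, in capitals, which tell reads of the genes apart.
Aldh1a1: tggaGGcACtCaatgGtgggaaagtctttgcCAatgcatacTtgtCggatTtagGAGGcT
Aldh1a7: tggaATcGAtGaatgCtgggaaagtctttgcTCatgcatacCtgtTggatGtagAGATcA
The longest run without a difference was 100 bases, and 151 of the 1457 windows of 50 bases, the read length, were identical, which is 10.4%. Reads from these windows could have been counted on either gene. Over whole annotated transcripts, 3.06% of the 50-base stretches of Aldh1a1 and 7.49% of those of Aldh1a7 occurred in the other gene. Among the other members, 30% of the 50-base stretches of Aldh4a1 also occurred in Gm21969, a readthrough gene on the same strand that was not among the genes analysed here, and 1.22% of those of Aldh1l1 in Gm45901. The remaining 6 members shared none with another gene.

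The 100 bases before the start of each transcript were nearly the same in this pair as well. At the second annotated start of Aldh1a1 (chr19:20601868-20601967, plus strand) and the start of Aldh1a7 (chr19:20727557-20727656, minus strand), 6 bases differed, shown in capitals (RefSeq, GRCm38.p6).
Aldh1a1: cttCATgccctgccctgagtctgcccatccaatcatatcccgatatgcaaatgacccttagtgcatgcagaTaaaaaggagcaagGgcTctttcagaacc
Aldh1a7: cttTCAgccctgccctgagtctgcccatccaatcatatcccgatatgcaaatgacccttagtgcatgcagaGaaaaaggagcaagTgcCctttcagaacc
The first annotated start of Aldh1a1 differed from Aldh1a7 at 70 of these 100 bases.

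RefSeq windows around the start site, 250 bases before to 50 after, were searched for 8 of the 10 members, and not for Aldh2 and Aldh7a1. The search took both strands and looked for TGACNNNGC, the core of the antioxidant response element, and for TGAGTCA, the AP-1 motif. TGACNNNGC occurred in 12.4% of 32851 mouse windows of this length and, among the windows of the 8 members, in that of Aldh1a2 alone. TGAGTCA occurred in 5.2% of the windows and, among members, before the first start of Aldh1a1 alone, on the reverse strand at -57. Aldh3a2 had the highest Log2FC among called members, and Aldh1a2 the lowest of all members. The 250 bases before the RefSeq start of Aldh3a2 are at chr11:61267187-61267436, minus strand. They lie within the gene as annotated by GENCODE, which starts further upstream, at 61267464. Those before the RefSeq start of Aldh1a2 are at chr9:71215539-71215788, plus strand. Both are shown, with the match at -112 in Aldh1a2 in capitals.
Aldh3a2: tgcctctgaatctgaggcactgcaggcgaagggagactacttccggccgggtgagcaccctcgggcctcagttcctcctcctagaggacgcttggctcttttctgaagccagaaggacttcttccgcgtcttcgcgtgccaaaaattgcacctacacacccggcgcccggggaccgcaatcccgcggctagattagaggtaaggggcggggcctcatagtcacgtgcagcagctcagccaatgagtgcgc
Aldh1a2: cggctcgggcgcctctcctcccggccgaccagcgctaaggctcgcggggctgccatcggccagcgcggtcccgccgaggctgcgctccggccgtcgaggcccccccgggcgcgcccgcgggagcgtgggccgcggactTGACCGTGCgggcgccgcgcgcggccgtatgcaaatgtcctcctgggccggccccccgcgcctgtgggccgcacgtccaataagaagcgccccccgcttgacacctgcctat
A match describes the letters in this window, and other parts of these genes were not searched.

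In these hearts, Aldh2 and Aldh3a2 were upregulated in mNrf2-TG, by 1.36-fold and 1.53-fold, and the other 8 members did not pass the test. The 2 of 10 called at an adjusted p under 0.05 are 20%, beside 17.2% of all 14637 genes tested. Both were called higher, in which direction 8.48% of all genes were called, and 0 members were called lower, beside 8.73% of all genes. The same 2 genes were the members whose normalized counts (counts scaled by TMM to a library of mean size) did not overlap between the groups, beside 29.7% of all genes, 15% higher and 14.7% lower. Log2FC, mNrf2-TG minus NTG, was above 0 for 8 members and below 0 for 2, with a median of 0.15, where the median over all genes tested was 0.00116. At an unadjusted p under 0.05 there were 5 members, the called pair with Aldh7a1, Aldh1b1 and Aldh1a2, beside 32.2% of all genes. Without NTG replicate 3 there were 3 called members, Aldh1b1 being added, beside 20.2% of all genes in that fit. Without NTG replicate 4 there were likewise 3, with Aldh1a2 added, beside 14.7% of all genes. In the remaining fits without 1 library the called members were Aldh2 and Aldh3a2. The share of all genes there was 9.39% (without mNrf2-TG replicate 17) to 11.2% (without mNrf2-TG replicate 19).

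**Figure D1:**
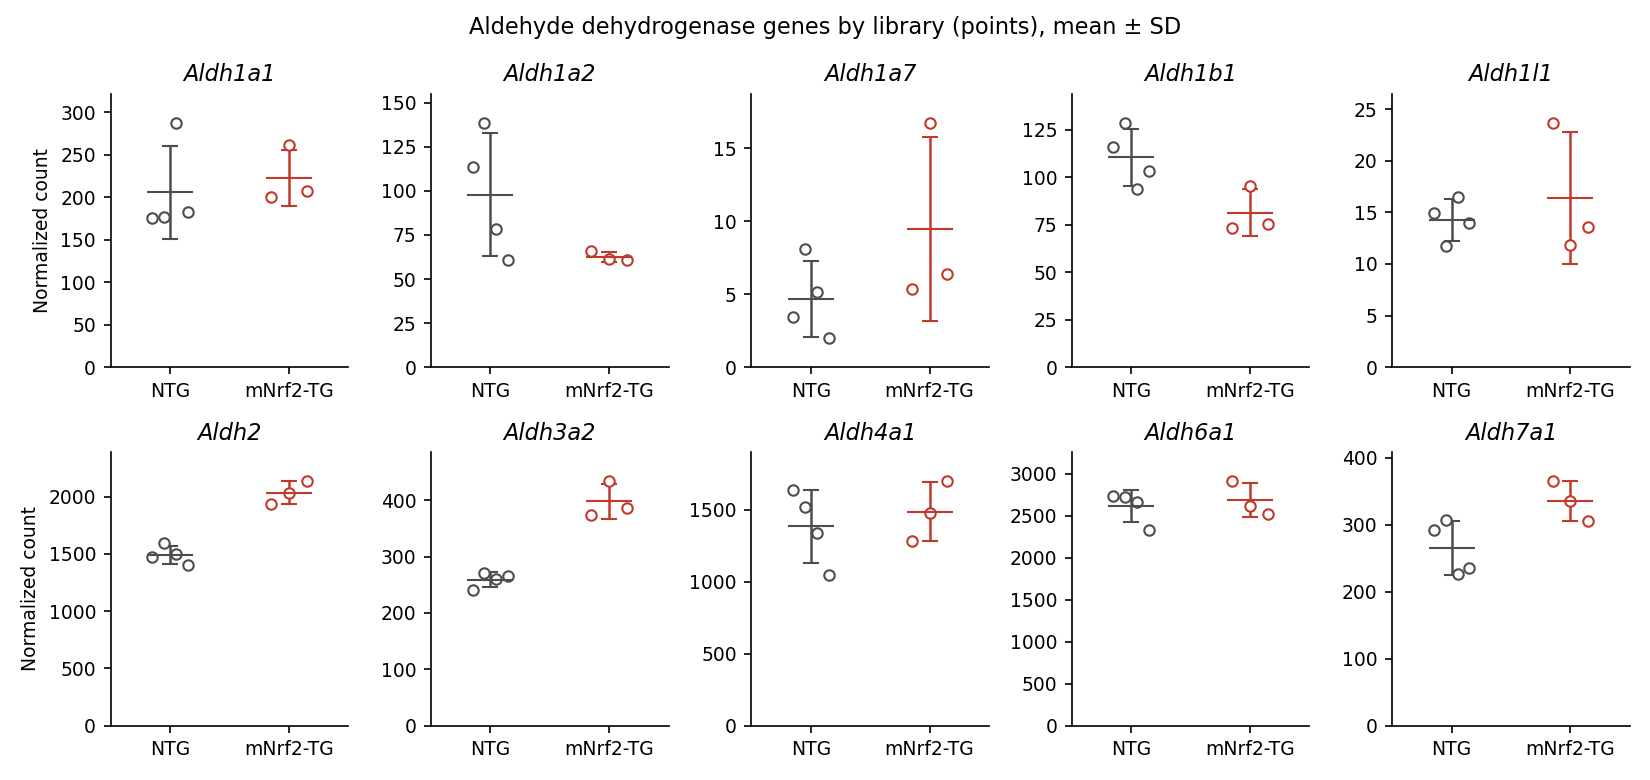
Normalized counts of the 10 genes in each library (points), with the mean and SD of 4 NTG and 3 mNrf2-TG libraries, each panel on its own linear axis from 0. The libraries of the groups are separate for Aldh2 and Aldh3a2, and overlap for the other 8 genes.

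Per kilobase of annotated exon, the members fell into 3 tiers in NTG. The length was that of all annotated exons of a gene, from 2066 bases for Aldh1a7 to 5784 for Aldh6a1. The order therefore depends on the annotation as well as on the counts. Aldh6a1 had the highest level, 452 ± 33.5 (SD, n = 4) normalized counts per kilobase, followed by Aldh2 at 291 ± 15.6 and Aldh4a1 at 282 ± 51.9, whose ranges overlapped. A second tier held Aldh7a1 (51.2 ± 7.75), Aldh1b1 (48.1 ± 6.59), Aldh3a2 (46.1 ± 2.23), Aldh1a2 (43.2 ± 15.5) and Aldh1a1 (41.7 ± 11.1), each overlapping with the next. Aldh1l1 (3.16 ± 0.445) and Aldh1a7 (2.26 ± 1.27) were lowest and overlapped with each other. The highest mean was 200 times the lowest.

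In mNrf2-TG the same 3 genes led, but Aldh2 at 397 ± 19.04 (SD, n = 3) normalized counts per kilobase no longer overlapped with Aldh4a1 at 303 ± 42.0, and Aldh6a1 stood at 464 ± 34.6. Aldh3a2 moved from the sixth to the fourth place with 70.8 ± 5.62, next to Aldh7a1 with 64.6 ± 5.77. The ranges of these genes overlapped. Aldh1a1 (45.2 ± 6.72), Aldh1b1 (35.4 ± 5.38) and Aldh1a2 (27.6 ± 1.195) followed. Aldh1a7 (4.60 ± 3.05) and Aldh1l1 (3.62 ± 1.41) were again lowest. Of all counts on the 10 genes, Aldh2, Aldh4a1 and Aldh6a1 together took 83.5% to 85.9% in every library. The part of Aldh2 was 21.62% to 24.87% in NTG and 26.78% to 28.79% in mNrf2-TG, while that of Aldh6a1 was 39.66% to 41.29% and 34.09% to 40.21%.

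**Figure D2:**
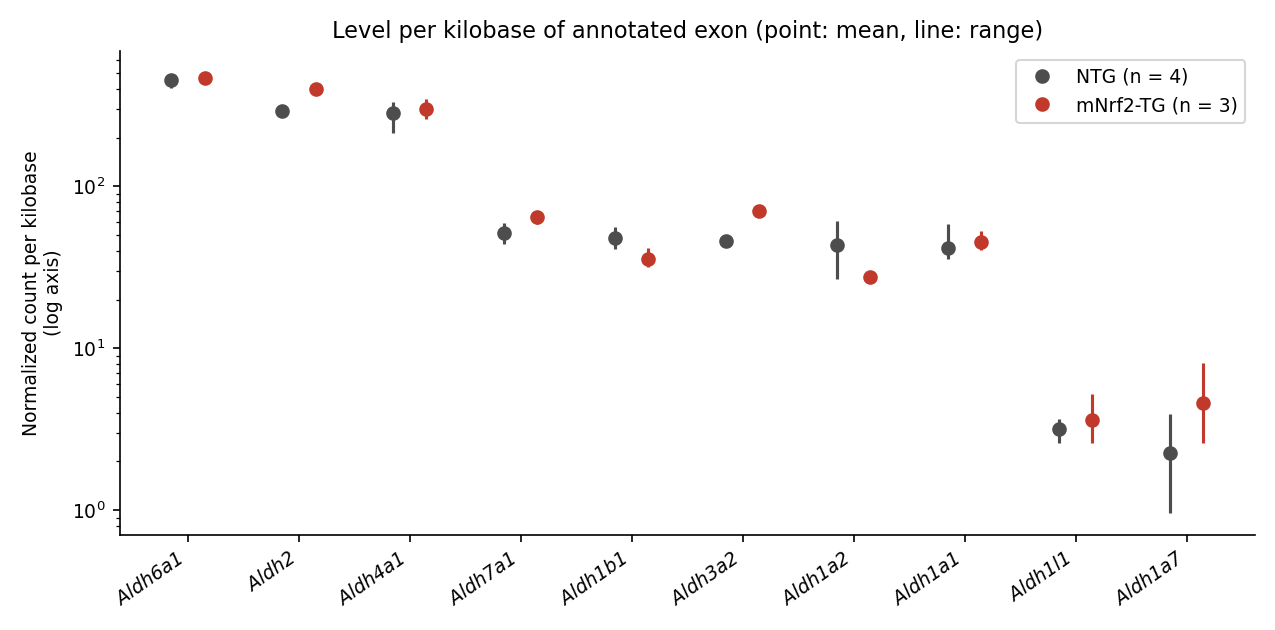
Normalized counts per kilobase of annotated exon on a log axis, with the mean (point) and the range over libraries (line) in NTG (n = 4) and mNrf2-TG (n = 3), in the order of the NTG means. Aldh6a1, Aldh2 and Aldh4a1 lie above 200 in each group, and Aldh1l1 and Aldh1a7 below 10.

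Aldh2, the mitochondrial enzyme that oxidizes acetaldehyde and lipid aldehydes such as hydroxynonenal, was counted at 1280, 1774, 1451 and 1410 reads in NTG 1 to 4 and at 1802, 2065 and 2351 in mNrf2-TG 17 to 19. After normalization these were 1471, 1597, 1496 and 1404 against 1939, 2034 and 2134. Every mNrf2-TG library lay above every NTG library, the highest of NTG being at 1597 and the lowest of mNrf2-TG at 1939. The mean rose from 1492 ± 79.9 (SD, n = 4) to 2036 ± 97.6 (SD, n = 3), a fold change of 1.36 (95% interval 1.23 to 1.52) and a Log2FC of 0.45 (SE 0.0698, edgeR adjusted p = 0.00312). Over all 14 alternatives, Log2FC stayed between 0.42 and 0.49 and the adjusted p between 1.04e-06 and 0.0139, so that the call was kept in each. Aldh2 (Entrez gene 11669) lies on chromosome 5, 121566027 to 121593824, minus strand, and shares 130 exon bases with Gm42879 on the other strand.

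Aldh3a2, the fatty aldehyde dehydrogenase of the endoplasmic reticulum, whose human counterpart is mutated in Sjögren-Larsson syndrome, had 210, 300, 253 and 266 counts in NTG and 347, 440 and 426 in mNrf2-TG. The normalized counts were 241, 270, 261 and 265 against 373, 433 and 387. NTG libraries were close together, and the lowest mNrf2-TG library stood well above the highest of them. From 259 ± 12.5 (SD, n = 4) the mean rose to 398 ± 31.6 (SD, n = 3), a fold change of 1.53 (95% interval 1.35 to 1.75) and a Log2FC of 0.62 (SE 0.0842, edgeR adjusted p = 0.00155). The call was kept under all 14 alternatives, with a Log2FC of 0.55 to 0.66 and an adjusted p of 3.11e-06 to 0.00875. Aldh3a2 (Entrez gene 11671) is on chromosome 11, 61223417 to 61267464, minus strand.

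Aldh1b1, a second mitochondrial enzyme for acetaldehyde (chromosome 4, 45799022 to 45804604), went the other way in its means. Its counts were 101, 143, 91 and 104 in NTG and 68, 97 and 83 in mNrf2-TG, and the normalized counts of mNrf2-TG 18 (95.6) and NTG 3 (93.8) overlapped. The mean was 111 ± 15.1 (SD, n = 4) in NTG and 81.4 ± 12.4 (SD, n = 3) in mNrf2-TG, a Log2FC of -0.44 (SE 0.15, 95% interval -0.78 to -0.10, edgeR adjusted p = 0.0724). Without NTG replicate 3 its adjusted p was 0.0354 at a Log2FC of -0.51, and over all alternatives it ran from 0.0354 to 0.207.

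**Figure D3:**
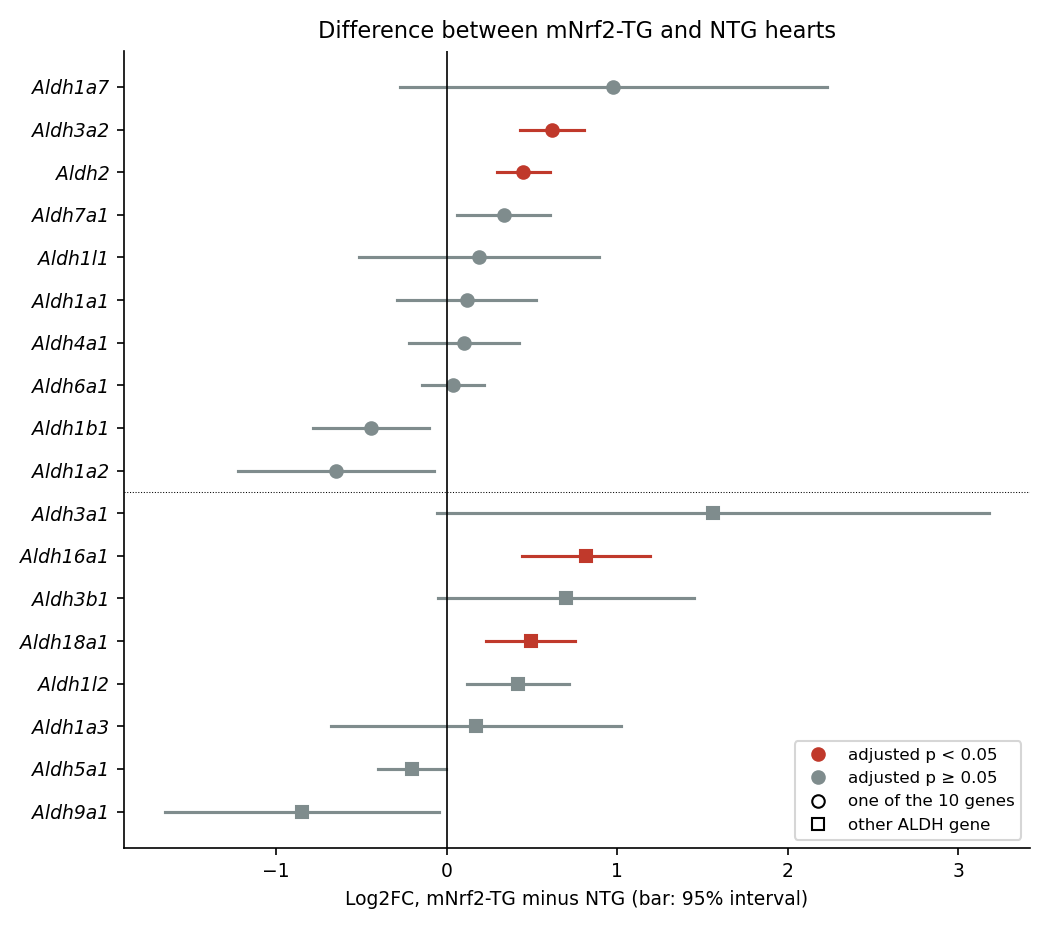
Log2FC between mNrf2-TG and NTG with its 95% interval from edgeR for the 10 genes (circles) and 8 other aldehyde dehydrogenase genes (squares), red where the adjusted p was under 0.05. Aldh3a2 and Aldh2 are red above the dotted line at 0.62 and 0.45, and Aldh16a1 and Aldh18a1 below it. The intervals of Aldh7a1, Aldh1b1 and Aldh1a2, and of the squares of Aldh1l2, Aldh9a1 and Aldh5a1, leave out 0 although their adjusted p did not pass.

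The genes for retinoic acid synthesis gave no call. Aldh1a1, the cytosolic retinaldehyde dehydrogenase, had 153, 197, 279 and 183 counts in NTG and 186, 265 and 229 in mNrf2-TG. NTG replicate 3 was higher than every other library of either group, at 288 normalized counts against 176 to 182 in the rest of NTG and 200 to 261 in mNrf2-TG. With it, the means were 206 ± 54.7 (SD, n = 4) and 223 ± 33.2 (SD, n = 3), a Log2FC of 0.12 (SE 0.18, 95% interval -0.29 to 0.52, edgeR adjusted p = 0.707). Without it, Log2FC was 0.32 (adjusted p = 0.0837), the remaining NTG libraries lay below all mNrf2-TG libraries, and this was the lowest adjusted p of the 15 alternatives for this gene. In the opposite sense, Log2FC was -0.0113 without mNrf2-TG replicate 18. The table lists Aldh1a1 (Entrez gene 11668) under the same name as another entry (Entrez gene 320092), which RefSeq calls E030003E18Rik, a noncoding gene within its span. That entry had 6, 8, 9 and 12 counts in NTG and 2, 7 and 11 in mNrf2-TG, and adding it to Aldh1a1, an alternative chosen after seeing the data, gave a Log2FC of 0.0971.

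Aldh1a2, which makes retinoic acid in the epicardium and the embryo (Entrez gene 19378, chromosome 9, 71215789 to 71296243), had 99, 154, 76 and 61 counts in NTG and 61, 62 and 67 in mNrf2-TG. The mNrf2-TG libraries agreed closely, whereas NTG spread from NTG 4, at the level of mNrf2-TG, to NTG 2, the highest. The mean was 97.9 ± 35 (SD, n = 4) against 62.5 ± 2.71 (SD, n = 3), a Log2FC of -0.65 (SE 0.26, 95% interval -1.22 to -0.08, edgeR adjusted p = 0.111). Without NTG replicate 4 it was -0.82 with an adjusted p of 0.0315, the only alternative that called it, and without NTG replicate 2 it was -0.42 (adjusted p = 0.269).

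Markers of the epicardium and mesothelium, where Aldh1a2 is known to be made, were few in these hearts. Of 6 measured, Wt1 alone was called, where 8.73% of all genes were called lower, with 83, 108, 51 and 135 counts in NTG and 32, 43 and 45 in mNrf2-TG (Log2FC -1.27, SE 0.28, edgeR adjusted p = 0.0138). This call was lost without mNrf2-TG replicate 17 (adjusted p = 0.0592). The others, Upk3b, Upk1b, Msln, Lrrn4 and Krt19, had between 0 and 8 counts in any library. Log2FC was above 0 for 3 of the 6 and its median was -0.00969. Wt1 made up most of the sum, and the summed level of the list in normalized counts was 77.3 to 136 across NTG libraries against 43.0 to 58.1 in mNrf2-TG. The part of these cells in the Aldh1a2 values was not tested.

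Aldh1a7, the near copy of Aldh1a1 in rodents (Entrez gene 26358), was counted at 3, 9, 5 and 2 reads in NTG and at 5, 17 and 7 in mNrf2-TG. Its highest library was mNrf2-TG 18, and the other mNrf2-TG libraries lay within the range of NTG. A Log2FC of 0.98 (SE 0.56, 95% interval -0.27 to 2.23, edgeR adjusted p = 0.263) was not distinguishable from 0 at this depth. It was 0.30 without mNrf2-TG replicate 18 and 1.41 without NTG replicate 2. Of the counts on Aldh1a1 and Aldh1a7 together, Aldh1a7 took 1.92%, 4.37%, 1.76% and 1.08% in NTG and 2.62%, 6.03% and 2.97% in mNrf2-TG. The exact Clopper-Pearson 95% intervals, which cover counting error only, reached from 0.131% to 3.85% in the lowest of these libraries and from 3.55% to 9.48% in the highest. Mean shares of 2.28% ± 1.44 (SD, n = 4) and 3.87% ± 1.88 (SD, n = 3) differed by 1.59 percentage points (exact permutation test over 35 assignments, two-sided, p = 0.286, the smallest possible being 0.0286). The difference was 0.509 without mNrf2-TG replicate 18 and 2.28 without NTG replicate 2. With shares taken from counts per kilobase it was 3.47. Per kilobase, Aldh1a1 was 18.4 times as abundant as Aldh1a7 in NTG and 9.83 times in mNrf2-TG. These per-kilobase values depend on the length used, all annotated exons, with 4937 bases for Aldh1a1 and 2066 for Aldh1a7. The coding sequences are equally long, at 1506 bases. Without division by length, the mean normalized counts of Aldh1a1 and Aldh1a7 were 206 and 4.67 in NTG, and 223 and 9.49 in mNrf2-TG.

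Among the members with a step in amino acid breakdown, Aldh7a1 had the lowest adjusted p. Its product, antiquitin, oxidizes the semialdehyde of lysine breakdown. Counts were 254, 341, 220 and 236 in NTG and 339, 340 and 336 in mNrf2-TG, or 292, 307, 227 and 235 against 365, 335 and 305 after normalization. Only mNrf2-TG 19, at 305, reached into the range of NTG. The mean was 265 ± 40.1 (SD, n = 4) and 335 ± 29.9 (SD, n = 3), a Log2FC of 0.34 (SE 0.12, 95% interval 0.06 to 0.61, edgeR adjusted p = 0.0889). No alternative called it, with adjusted p from 0.0625 to 0.256. Aldh7a1 (Entrez gene 110695, chromosome 18, 56509687 to 56572951, minus strand) shares 300 exon bases with Phax on the other strand.

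Aldh6a1, the methylmalonate semialdehyde dehydrogenase of valine and thymine breakdown, was the most abundant member, with 2385, 3033, 2586 and 2341 counts in NTG and 2705, 2658 and 2784 in mNrf2-TG. The groups overlapped and had nearly equal means, 2617 ± 194 (SD, n = 4) and 2685 ± 200 (SD, n = 3) normalized counts. Its Log2FC of 0.04 (SE 0.0814, edgeR adjusted p = 0.797) had the narrowest interval of the uncalled members, -0.14 to 0.22, which leaves out a change of the size seen in Aldh2. The sign turned without NTG replicate 4 (-0.0111) and without mNrf2-TG replicate 17 (-0.0245). Aldh6a1 (chromosome 12, 84430717 to 84451004, minus strand) shares 1078 exon bases with Bbof1 on the other strand, and whether reads were counted by strand is not given in the sources used here.

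Aldh4a1, the mitochondrial pyrroline-5-carboxylate dehydrogenase of proline breakdown (chromosome 4, 139622866 to 139649690), had 1422, 1684, 1297 and 1053 counts in NTG and 1193, 1497 and 1868 in mNrf2-TG. Libraries of each group were spread over much the same range. The mean was 1384 ± 255 (SD, n = 4) and 1485 ± 206 (SD, n = 3), a Log2FC of 0.10 (SE 0.15, 95% interval -0.22 to 0.43, edgeR adjusted p = 0.678), whose sign turned without NTG replicate 4 (-0.00699) and without mNrf2-TG replicate 19 (-0.00123).

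Aldh1l1, the cytosolic formyltetrahydrofolate dehydrogenase and a known marker of astrocytes and liver (chromosome 6, 90486427 to 90600203), was near the limit of counting, with 13, 13, 16 and 14 counts in NTG and 22, 12 and 15 in mNrf2-TG. Its Log2FC of 0.19 (SE 0.32, 95% interval -0.51 to 0.89, edgeR adjusted p = 0.726) rested on mNrf2-TG replicate 17, without which it was -0.16. It shares 499 exon bases with Gm15756 on the other strand.

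**Figure D4:**
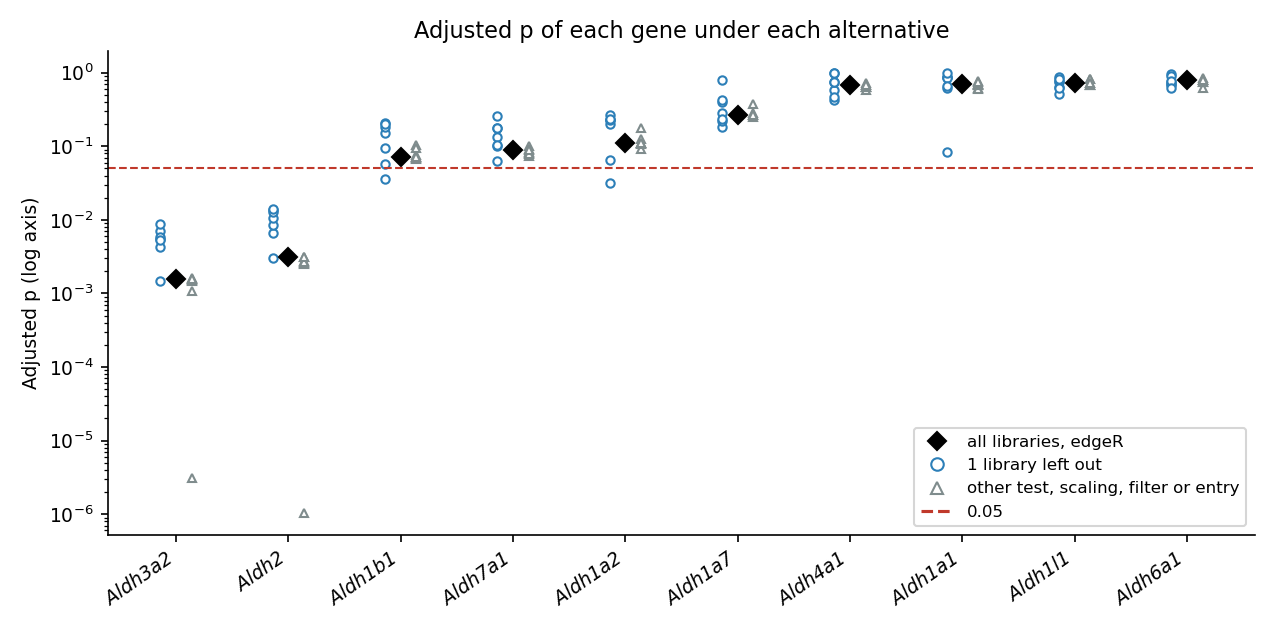
Adjusted p of each of the 10 genes on a log axis, with all libraries in edgeR (diamond), with 1 library left out (circles) and with another test, scaling, filter or entry (triangles). Aldh3a2 and Aldh2 stay under the dashed line at 0.05 throughout, and Aldh1b1 and Aldh1a2 fall under it with 1 library left out, at 0.0354 and 0.0315.

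Of a list of 11 further aldehyde dehydrogenase genes, 10 were in the table, and 2 of these, Aldh16a1 and Aldh18a1, were upregulated and none downregulated, 20% beside 17.2% of all genes. Their median Log2FC was 0.30. Aldh16a1 had 87, 77, 61 and 65 counts in NTG and 136, 125 and 134 in mNrf2-TG, without overlap. Its Log2FC of 0.82 (SE 0.17, edgeR adjusted p = 0.0107) was called under all 14 alternatives, with an adjusted p of at most 0.0499. Aldh18a1, which makes pyrroline-5-carboxylate for proline synthesis, had 80, 111, 76 and 85 counts in NTG and 112, 129 and 140 in mNrf2-TG. Its normalized counts did not overlap either, and rose from 88.7 ± 9.29 (SD, n = 4) to 125 ± 3.80 (SD, n = 3), a Log2FC of 0.49 (SE 0.12, edgeR adjusted p = 0.0189). The call was lost without mNrf2-TG replicate 17, 18 or 19, with an adjusted p of 0.0502 to 0.0611.

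Aldh9a1, which serves carnitine synthesis, was counted at 200, 299, 81 and 269 reads in NTG and at 71, 151 and 141 in mNrf2-TG. NTG replicate 3 lay among the mNrf2-TG libraries and the other 3 NTG libraries above them. The Log2FC was -0.85 (SE 0.36, edgeR adjusted p = 0.135), and -1.11 without NTG replicate 3, with an adjusted p of 0.0033. Aldh5a1, the succinate semialdehyde dehydrogenase of GABA breakdown, was close to the threshold in the same setting (Log2FC -0.21 and adjusted p = 0.145 over all libraries, -0.26 and 0.0477 without NTG replicate 3). Aldh1l2, the mitochondrial counterpart of Aldh1l1, had a Log2FC of 0.42 (adjusted p = 0.0595) and passed without NTG replicate 2 (0.0312) or mNrf2-TG replicate 18 (0.0399). Aldh3b1 was at 8 to 10 counts in NTG and did not overlap with mNrf2-TG, at 11 to 21 (Log2FC 0.70, adjusted p = 0.182). Its Log2FC was 0.35 without mNrf2-TG replicate 18 (adjusted p = 0.58) and 0.88 without mNrf2-TG replicate 19. Aldh3a1, abundant in the cornea, had 0 to 5 and 5 to 8 counts (Log2FC 1.56, adjusted p = 0.169). With a library left out, its Log2FC ran from 1.17 without NTG replicate 3 to 2.55 without NTG replicate 1 (adjusted p = 0.0614). Aldh1a3, the third retinaldehyde dehydrogenase, had 5 to 12 and 7 to 12 counts (Log2FC 0.17, adjusted p = 0.798). Aldh3b3 and Aldh8a1 had at most 2 counts in any library, too few for a fold change.

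The genes that work beside the members were taken as lists of pathways. The share of all genes called was 14.7% without NTG replicate 4 and 20.2% without NTG replicate 3. With another library left out it was 9.39% to 11.2%, so the counts per list are to be read beside these shares. Without NTG replicate 3, the library that stood apart, the lists in the order given here had 5 higher and 0 lower, 2 and 1, 3 and 5, 1 and 0, 2 and 0, and 3 and 1, and the further aldehyde dehydrogenases above 2 and 2, beside 20.2% of all genes called in that fit. Other enzymes that handle aldehydes gave 4 higher and 0 lower of 12 measured, 33.3% beside 17.2% of all genes, and a median Log2FC of 0.29. Esd, whose product completes the removal of formaldehyde with glutathione, had 541, 713, 693 and 708 counts in NTG and 4698, 4233 and 3748 in mNrf2-TG. Its Log2FC of 2.65 (SE 0.12, edgeR adjusted p = 1.15e-06) was above that of any member. Aox1, the aldehyde oxidase, had 352, 459, 270 and 219 counts in NTG and 928, 1078 and 955 in mNrf2-TG (Log2FC 1.57, SE 0.19, adjusted p = 0.000893). Akr1a1, an aldehyde reductase, rose by a Log2FC of 0.39 (SE 0.0607, adjusted p = 0.00301), a size near that of Aldh2, from 1808 ± 61.4 (SD, n = 4) to 2374 ± 25.2 (SD, n = 3). Ptgr1, which reduces alkenals, had a Log2FC of 0.84 (adjusted p = 0.0303) from at most 28 counts in NTG and at least 38 in mNrf2-TG, and was called without NTG replicate 3 or NTG replicate 4 but in none of the other 5 fits that left out 1 library (adjusted p up to 0.0972).

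Genes of retinoid metabolism and its receptors, the setting of Aldh1a1 and Aldh1a2, gave 1 higher and 1 lower of 20 measured, 10% in all, with a median Log2FC of 0.14. Rdh13, a mitochondrial retinol dehydrogenase, had 187, 253, 197 and 246 counts in NTG and 297, 336 and 307 in mNrf2-TG (Log2FC 0.47, adjusted p = 0.0102). Dhrs3, which reduces retinaldehyde back to retinol, had 557, 785, 524 and 612 in NTG and 470, 465 and 459 in mNrf2-TG (Log2FC -0.44, adjusted p = 0.0186). The call of Dhrs3 was lost without NTG replicate 1, NTG replicate 2, mNrf2-TG replicate 18 or mNrf2-TG replicate 19 (adjusted p = 0.0539 to 0.0785), and 2 genes of the list were higher without NTG replicate 3 and 2 lower without NTG replicate 4.

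Branched-chain amino acid breakdown, in which Aldh6a1 acts, had 3 genes higher and 5 lower of 22 measured, 36.4% in all, and a median Log2FC of -0.01. Acad8, the isobutyryl-CoA dehydrogenase that precedes Aldh6a1 in the valine pathway, rose from 431 ± 26.3 (SD, n = 4) to 584 ± 35.5 (SD, n = 3) with a Log2FC of 0.44 (adjusted p = 0.00613). Echs1, the enoyl-CoA hydratase of the next step, had a Log2FC of 0.37 (adjusted p = 0.00626). Bckdhb (Log2FC -0.38, adjusted p = 0.013) and Dbt (Log2FC -0.37, adjusted p = 0.01), subunits of the branched-chain ketoacid dehydrogenase at the entry to the pathway, were lower. The call of Bckdhb was lost without mNrf2-TG replicate 18 (adjusted p = 0.0513). The other called genes among the lower, named after their values were seen, were Dld, Hsd17b10 and Auh, and each lost its call in 5 of the 7 fits without 1 library. Hsd17b10 and Auh also lost it when scaled by the library total alone (adjusted p = 0.0611 and 0.0614). The number lower was thus 5 without NTG replicate 3, 4 without mNrf2-TG replicate 19 and 3 without NTG replicate 4. It was 2 without NTG replicate 1, NTG replicate 2 or mNrf2-TG replicate 17, and 1 without mNrf2-TG replicate 18. The number higher was 2 or 3. Of all genes, 20.2% were called without NTG replicate 3, 14.7% without NTG replicate 4 and 9.39% to 11.2% in the other fits without 1 library.

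The list of proline and lysine metabolism, the setting of Aldh4a1 and Aldh7a1, also held enzymes of choline and sarcosine breakdown and had 1 gene higher and 0 lower of 14 measured, 7.14%, with a median Log2FC of 0.18. The called gene was Sardh, the sarcosine dehydrogenase of choline breakdown, which acts in neither proline nor lysine metabolism, with 40, 60, 69 and 88 counts in NTG and 181, 166 and 187 in mNrf2-TG (Log2FC 1.44, SE 0.19, adjusted p = 0.0013). Without NTG replicate 4 there were 3 higher. Folate one-carbon enzymes, beside Aldh1l1, gave 2 higher and 0 lower of 19 measured, 10.5%, with a median of -0.01. Gcsh, a protein of glycine cleavage, rose from 476 ± 19.8 (SD, n = 4) to 686 ± 68.8 (SD, n = 3) normalized counts (Log2FC 0.53, adjusted p = 0.0033). Atic, of purine synthesis, had a Log2FC of 0.31 (adjusted p = 0.0311), and was not called without NTG replicate 1, NTG replicate 2, mNrf2-TG replicate 17 or mNrf2-TG replicate 18 (adjusted p = 0.0612 to 0.104). Without NTG replicate 4, 3 folate enzymes were higher.

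A list of enzymes of fatty aldehydes, ether lipids and peroxisomal oxidation of acyl chains, drawn up around Aldh3a2, had 3 genes higher and 2 lower of 11 measured, 45.5% in all, with a median Log2FC of 0.10. Acox2, a peroxisomal oxidase of branched acyl chains that forms neither a fatty aldehyde nor an ether lipid, had 6, 5, 1 and 6 counts in NTG and 85, 114 and 121 in mNrf2-TG, a Log2FC of 4.48 (SE 0.30, edgeR adjusted p = 1.48e-05). Hacl1, which releases a fatty aldehyde in alpha-oxidation, had 62, 84, 61 and 85 counts in NTG and 95, 117 and 125 in mNrf2-TG (Log2FC 0.58, adjusted p = 0.0149), and lost its call without mNrf2-TG replicate 18 or 19 (0.0544 and 0.0506). Sgpl1, whose lyase reaction yields hexadecenal, had a Log2FC of 0.30 (adjusted p = 0.0351), which was called only without NTG replicate 3 among the fits without 1 library and not by DESeq2 (0.0567). Tmem189, the plasmalogen desaturase, fell from 246 ± 14.9 (SD, n = 4) to 178 ± 11.6 (SD, n = 3) with a Log2FC of -0.46 (adjusted p = 0.00892). Gnpat, of the first step of ether lipid synthesis, was named after its values were seen (Log2FC -0.23, adjusted p = 0.0475), and was called only without NTG replicate 4 among the fits without 1 library, and not when scaled by the library total alone (0.0922).

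**Figure D5:**
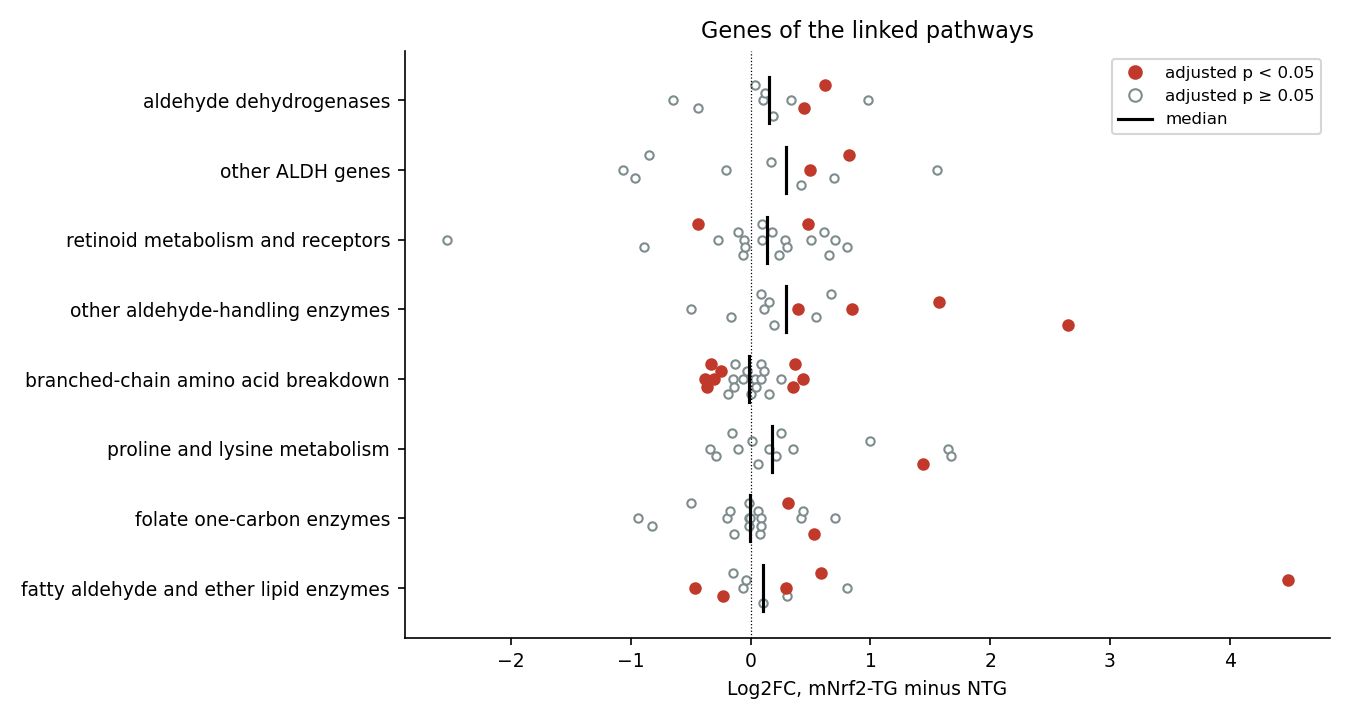
Log2FC, mNrf2-TG minus NTG, of each measured gene of the aldehyde dehydrogenases and of 7 lists of related genes, filled red where the edgeR adjusted p was under 0.05, with the median of each list as a black line. The points at 4.48 and 2.65 are Acox2 and Esd, and the medians lie between -0.01 and 0.30.

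Markers of other cell types moved between the groups as well, and their counts stand beside 8.48% of all genes called higher and 8.73% called lower. Of 6 fibroblast markers, 4 were called higher and 0 lower, with summed levels in normalized counts of 7643 to 9944 across NTG libraries against 10742 to 11291 in mNrf2-TG. With each library left out, a setting added for the markers after seeing the data, 2 to 5 of them were called higher. The fewest were called without mNrf2-TG replicate 19. The share of all genes called in either direction was 9.39% to 20.2% in these fits. Macrophage markers were called higher in 3 of 5 cases, at 715 to 1160 against 1365 to 2022, and in 3 or 4 with each library left out. Cardiomyocyte markers were called lower in 2 of 6, at 500598 to 534173 against 425164 to 445701, and in 2 or 3 with each library left out. Endothelial markers gave 1 higher and 2 lower of 5, at 5395 to 6024 against 4972 to 5358. The higher call was lost without NTG replicate 1, 2 or 4 and without mNrf2-TG replicate 17 or 18, and 1 to 3 were lower with each library left out. Smooth muscle markers gave no call among 4, with Log2FC below 0 for 3 and 0 at an unadjusted p under 0.05. The sum over all 4, 1669 to 8669 against 5973 to 9953, was mostly Acta2, named after its values were seen, with 893, 1213, 7707 and 1894 counts in NTG and 8693, 8390 and 6026 in mNrf2-TG. It was called higher without NTG replicate 3. Adipocyte markers gave no call among 3, with at most 3.60 and 20.0 normalized counts. The ALDH genes are made in several of these cell types, and the part of cell composition in the values of Aldh2, Aldh3a2 and the other members was not tested.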

How the data were processed

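The 7 libraries were poly(A)-selected, stranded and read as single 50-base reads. Per the labels and methods, the authors aligned reads with Novoalign 2.08.01 to chromosome and splice junction sequences and deposited counts per gene without normalization. The reference is called hg19 for the index and mm10 (GRCm38) for the mapping. The counting program and its use of strand are not given in the sources used here. A mean signal per gene, made by the authors with DESeq2 1.32.0 from size-factor scaled counts, was recomputed from the counts, with a median difference of 0.067% and a maximum of 0.29%. The deposited rlog values, and the authors' own fold changes and p-values, were not used.

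The table held 14665 entries. Removing 24 repeated ones left 14641 genes, of which 14637 with a summed count above 1 were tested. For 56 entries the name was taken from RefSeq. The mNrf2-TG group came from the genotype label TG of its libraries, which are titled mWT. The NTG group came from the titles of its libraries. The groups were compared in edgeR 4.0.16 (R 4.3.3) with TMM scaling and the quasi-likelihood test, without covariates. Benjamini-Hochberg adjustment was over all genes tested. SE was obtained from Log2FC and F, as their ratio after taking the root of F. Positions and exon lengths are from GENCODE M21 (GRCm38), and promoters from RefSeq (GRCm38.p6). Alternatives were DESeq2 1.42.0, limma-voom (limma 3.58.1), other scalings and filters, and leaving out each library in turn.

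The members and lists were chosen with earlier results of these data known. Genes named are all members, all other ALDH genes in the table and, per pathway list, up to 4 called genes with the largest absolute Log2FC whose higher group had no library under 10 counts. Further genes are marked as named after seeing the data, and the epicardial markers stand as defining markers. Results for 1 gene are not reported here. At these totals, counts under about 10 per library do not resolve moderate changes.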

Additional observations from a re-analysis of the deposited data

Results flagged for a closer look

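In NTG replicate 3 the normalized count of Aldh1a1 was 288, whereas the other NTG libraries had 176 to 182. The gap to the nearest library was 0.943 of the range of the group, past Dixon's 95% critical value for 4 samples. The same library was lowest for Atic, with 230 normalized counts against 256 to 259 in the other NTG libraries, a gap of 0.911 of the range. In all, 44 groups of 4 were examined and 2 passed, where chance gives about 1 in 20.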

How the results depend on the processing

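The calls of Aldh2 and Aldh3a2 held under all 14 alternatives, and the number of members called was 2 under each, except for 3 without NTG replicate 3 or 4. Over all genes, leaving out 1 library gave 1373 to 2950 calls, the lowest without mNrf2-TG replicate 17 and the highest without NTG replicate 3. The other tests, scalings and filters gave 2417 to 2655. Scaling by the library total alone raised the part of called genes that were higher from 49.3% to 57.2% and the median Log2FC to 0.0309.

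Apart from Aldh8a1, Log2FC changed sign in 7 cases, each with a library left out and none called in any setting. Aldh1a1 ranged from -0.0113 without mNrf2-TG replicate 18 to 0.32, and Aldh1l1 from -0.16 without mNrf2-TG replicate 17 to 0.37. Aldh4a1 ranged from -0.00699 without NTG replicate 4 to 0.20, with -0.00123 without mNrf2-TG replicate 19. Aldh6a1 ranged from -0.0245 without mNrf2-TG replicate 17 to 0.0830, with -0.0111 without NTG replicate 4. Aldh1a3 ranged from -0.0588 without mNrf2-TG replicate 19 to 0.43. The cause was not tested. Aldh8a1 has too few counts for a fold change, and its fitted values, -2.83 to 0.0168 with the latter without NTG replicate 1, give no direction. For the share of Aldh1a7, the difference ran from 0.509 to 2.28 percentage points with each library left out and was 3.47 per kilobase, and its exact test passed in none. That test cannot pass 0.05 with a library left out.

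Aldh1a7 could not be fitted under the 2 stricter filters. The few counts of Aldh1a7 and Aldh1l1, and the near-identical sequence of Aldh1a1 and Aldh1a7, limit the values of these members. Exon bases shared with genes on the other strand can limit those of Aldh1l1, Aldh2, Aldh6a1 and Aldh7a1. For Aldh4a1 the same holds for the stretches shared with Gm21969 on the same strand. No paired analysis was possible because the groups share no replicate numbers, with 1 to 4 in NTG and 17 to 19 in mNrf2-TG.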
